A study of Mus musculus with 2 samples.

Results

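Malat1, Neat1, Gas5, Snhg1, Snhg3, Snhg5, Snhg8, Snhg12, Dleu2 and Epb41l4aos are long noncoding RNA genes that stay in the nucleus or carry small RNA genes in their bodies. The 10 genes were taken by name and matched by their GENCODE M21 gene identifiers, 10 of 55536 annotated genes, of which 10155 have a long noncoding biotype. The rule uses names and no measured value, although earlier results of these data were known when the genes were chosen. The RNA came from regulatory T cells, a CD4 lineage that depends on the transcription factor Foxp3 and holds immune reactions in check, of 1 male adult mouse aged 4 months. The animal carried the strain name Foxp3CreERT2 x Rosa26YFP, which joins a Cre recombinase fused to an estrogen receptor domain under Foxp3 with a yellow fluorescent reporter at the Rosa26 locus. Per the labels the primary cells derive from a haematopoietic cell of the bone marrow, the assay was polyA plus RNA-seq after Covaris shearing, and no sort, gate or drug treatment is stated. Both libraries are technical replicates of this sample, called library 1 and library 2, so there is 1 group and no comparison between conditions.

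Long noncoding RNAs of the nucleus and the hosts of small nucleolar RNAs (snoRNAs) are well studied families. Malat1 gathers in nuclear speckles, where splicing factors are stored, and Neat1 is the scaffold of paraspeckles, bodies built on its long form together with RNA-binding proteins such as Nono and Sfpq. A snoRNA host gene is spliced like a messenger RNA, but its introns are trimmed to snoRNAs that guide methylation (box C/D) or pseudouridylation (box H/ACA) of ribosomal RNA. The spliced exons of many hosts are bound by ribosomes and broken down by nonsense-mediated decay, and in vertebrates many hosts begin with the run of pyrimidines that marks mRNAs of the translation machinery. Dleu2 is the host of a microRNA cluster instead, miR-15a and miR-16, whose loss in human B cells is linked to chronic lymphocytic leukaemia.

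The sequences that define these classes are shown before the values. In all, 29 annotated snoRNA genes lie inside the members on the same strand, between 60 and 205 bases long. In Gas5 and in Snhg12 a snoRNA locus is annotated by overlapping entries, and every entry is counted here and below. By letters, 16 of them hold TGATGA (C box) starting in the first 16 bases and CTGA (D box) starting in the last 16, and 7 of the others hold ACA starting in the last 8 bases. Each motif was searched on the transcribed strand only, and 6 snoRNA genes hold neither pattern. Among all 1507 annotated snoRNA genes, 20.3% hold the C and D boxes and 46.0% hold ACA without them, against 55.2% and 24.1% inside the members. The examples are the snoRNA genes with the most estimated counts in Gas5 (chr1:161036057-161036139, plus strand), Snhg5 (chr9:88521797-88521868, minus strand), Snhg3 (chr4:132352322-132352526, minus strand) and Snhg8 (chr3:123507937-123508066, minus strand). They are mm10 sequences of the GENCODE transcripts, 5′ to 3′, with C, D or ACA boxes in capitals:
Gm22357 in Gas5: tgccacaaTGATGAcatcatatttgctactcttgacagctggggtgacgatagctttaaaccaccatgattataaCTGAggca
Snord50b in Snhg5: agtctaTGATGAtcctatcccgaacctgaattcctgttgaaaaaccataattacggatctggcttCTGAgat
Snora73b in Snhg3: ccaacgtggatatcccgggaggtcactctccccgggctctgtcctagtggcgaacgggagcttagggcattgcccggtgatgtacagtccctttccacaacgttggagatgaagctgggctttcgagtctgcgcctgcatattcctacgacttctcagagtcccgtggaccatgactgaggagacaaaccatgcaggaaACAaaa
Snora24 in Snhg8: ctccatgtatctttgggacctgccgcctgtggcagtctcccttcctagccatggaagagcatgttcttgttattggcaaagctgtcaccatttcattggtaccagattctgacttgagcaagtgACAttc

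Malat1 has no poly(A) tail made in the usual way. Its nascent RNA is cut just before a tRNA-like small RNA, mascRNA, and the new end is protected by a triple helix that uses a genome-encoded A tract. In Malat1-201, the annotated transcript of 6983 bases, the longest run of A has 12 bases (positions 6674 to 6685) and ends 6 bases before the mascRNA gene (positions 6692 to 6749), while the annotation runs on for 234 bases after it. The 90 bases before mascRNA (chr19:5795982-5796071, mm10, minus strand) are shown with the A run in capitals, followed by the 58 bases of the mascRNA gene at the position RefSeq gives on GRCm38.p6 (chr19:5795924-5795981, minus strand):
Malat1-201 before mascRNA: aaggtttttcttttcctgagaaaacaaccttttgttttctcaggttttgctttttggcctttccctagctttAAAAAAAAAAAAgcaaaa
Mascrna: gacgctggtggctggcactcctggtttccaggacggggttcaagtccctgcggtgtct

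The mature microRNAs of the Dleu2 cluster share their seed, the part that pairs with targets (bases 2 to 8, in capitals; RefSeq, GRCm38.p6, chr14:61632075-61632096 and chr14:61631936-61631957, minus strand):
mmu-miR-15a-5p: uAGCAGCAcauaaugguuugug
mmu-miR-16-5p: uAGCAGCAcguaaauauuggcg

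All 10 genes were expressed in both libraries, by a threshold of 1 TPM, a level scaled for transcript length and depth. Of all genes 24.3% reached it, and of the genes with long noncoding biotypes 9.46%, that is 961 of 10155. Each member also reached 5 TPM in both libraries. Their median level was 55.4 TPM, against 3.50 TPM over the expressed long noncoding genes and 18.5 TPM over the expressed protein-coding genes. In bulk RNA, fewer cells with an RNA and less of it per cell cannot be told apart. Values with ± are the mean and SD of the 2 libraries (n = 2), a technical spread.

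**Figure D1:**
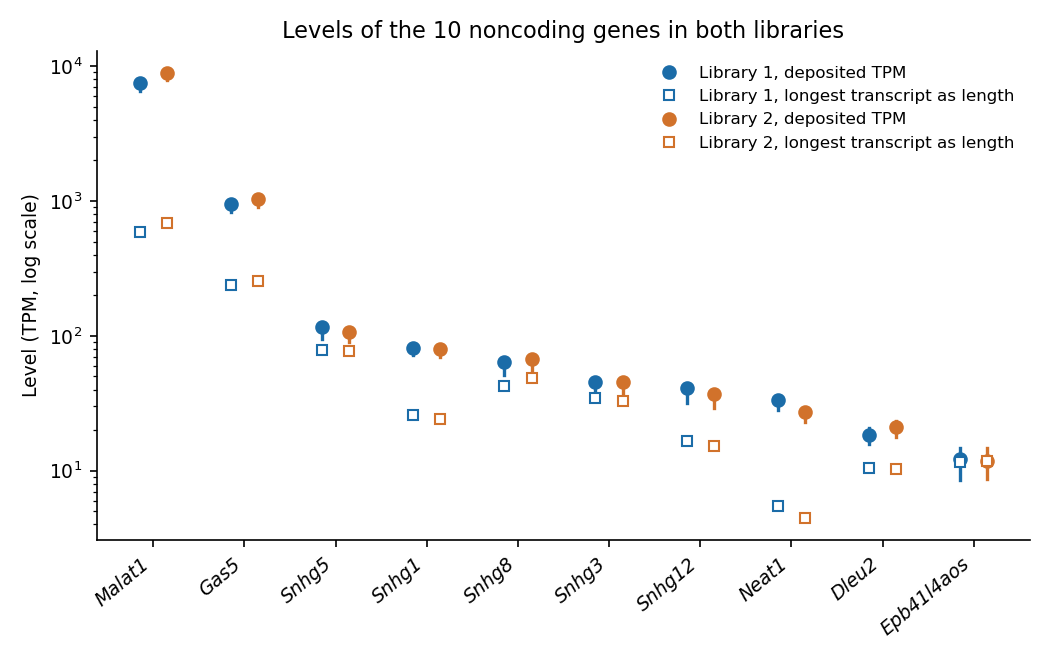
Level of each gene in library 1 and library 2 (TPM, log scale); filled points are the deposited TPM, vertical lines the deposited posterior interval of the same library, and open squares the level computed with the length of the longest annotated transcript. Malat1 stands at 7467 and 8904 TPM and Epb41l4aos at 12.1 and 11.9, while the open squares lie below the filled points most in Malat1, by 12.8-fold.

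Library 1 held 15821875 estimated counts on genes and library 2 held 16153671, so a gene counted at 0 may still have had up to 3 counts (0.190 and 0.186 CPM), by counting error only. The members took 63497 and 74924 counts, 0.401% and 0.464% of the libraries and 17.0% and 23.3% of all counts on long noncoding genes. Malat1 alone was 80.6% and 82.5% of the members' counts. The share among long noncoding counts moved with AY036118, a gene outside the set that stood at 9667 TPM in library 1 and 3840 in library 2, and its part in that share was not tested. Regulatory T cell markers were present, all 6 of 6 expressed with a median of 239 TPM (Foxp3 at 43.2 and 36.2 TPM). Of 14 markers of B, CD8 T, NK, myeloid, red and progenitor cells 3 were expressed (Cd8a, Klrb1c and Hbb-bs). All 14 markers together summed to 18.6 and 13.9 TPM, and none of the 14 was at 0 in both libraries. Ms4a1 had 30 and 3 counts, and Csf1r 44.2 and 11.8. Both were called higher in library 1 by the exact binomial test and by edgeR's exact test, described below. They were 2 of 10 markers tested, against 13.4% and 0.928% of all genes, and 0 were called higher in library 2 by the binomial test. Whether cells of these other types gave any of the members' RNA was not tested.

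In order of mean level, the members ran from Malat1 and Gas5 through Snhg5, Snhg1, Snhg8, Snhg3, Snhg12 and Neat1 to Dleu2 and Epb41l4aos. For each of the 9 neighbouring pairs in this order the values of the 2 libraries did not overlap. The deposited posterior intervals, whose credibility level is not given in the sources used here, overlapped in both libraries for Snhg3 and Snhg12, and in 1 library for Snhg12 and Neat1 and for Neat1 and Dleu2. By these intervals the order within each of these pairs is not settled. The intervals of Snhg3 lay above those of Neat1 and Dleu2, and those of Snhg12 above those of Dleu2, in both libraries. The interval belongs to the posterior mean, a separate estimate that was lower for each member (6642 and 7961 TPM for Malat1), and the deposited TPM of Malat1, Neat1, Gas5, Snhg5 and Snhg8 lies above it in both libraries.

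**Figure D2:**
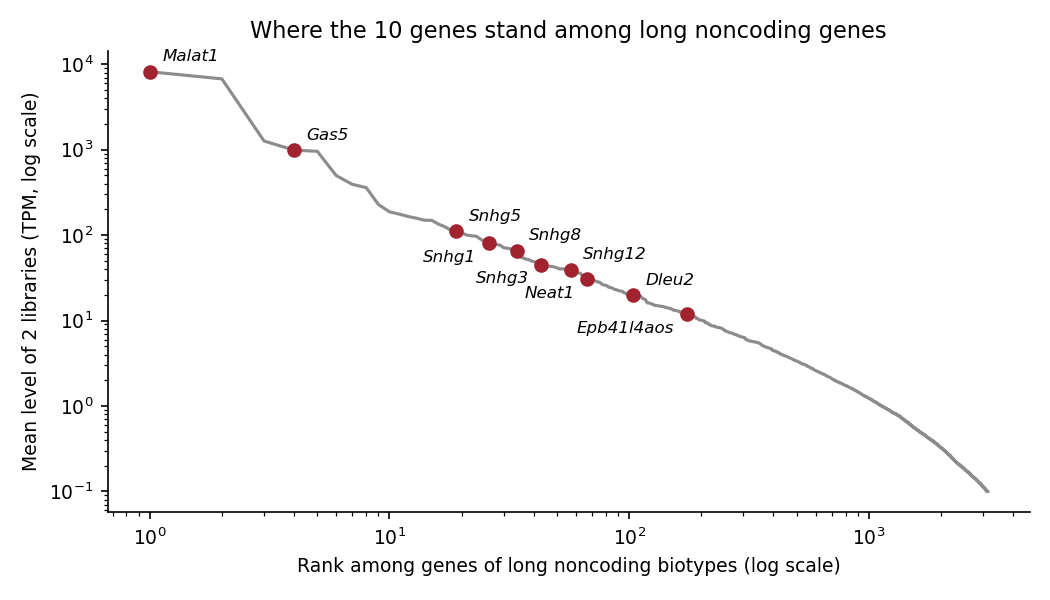
Mean level of the 2 libraries (TPM, log scale) against rank among genes of long noncoding biotypes (log scale); the grey line is all such genes at or above 0.1 TPM and the red points are the 10 members. Malat1 has rank 1, Gas5 rank 4 and the lowest member, Epb41l4aos, rank 174.

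Malat1 (ENSMUSG00000092341.3, lincRNA; mm10 chr19:5795690-5802672, minus strand) had the highest mean level of the long noncoding genes, although in library 1 AY036118 stood above it (9667 TPM). It stood at 7467 TPM in library 1 and 8904 in library 2, a mean of 8185 ± 1016, rank 6 among all genes. Its estimated counts were 51174 and 61823, which is 0.323% (95% exact Clopper-Pearson interval 0.321 to 0.326) and 0.383% (0.380 to 0.386) of the libraries. Library 2 was the higher one on both scales.

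Nearly all of the Malat1 TPM was assigned to a short annotated transcript at the 5′ end. Malat1-203 (485 bases, exons of 434 and 51 bases between positions 2 and 757 of the gene) received 98.23% and 98.51% of the TPM, with 39762 and 49863 counts, or 77.7% and 80.7% of the gene's counts. The full-length Malat1-201 received 11412 and 11960 counts, 1.77% and 1.49% of the TPM. Per kilobase of annotated length, Malat1-203 held 81983 and 102810 counts and Malat1-201 held 1634 and 1713. Malat1-202 and Malat1-204, which are spliced to an exon that begins after mascRNA, had 0 counts in both libraries. The short transcript is largely not distinct from the long one in sequence: 391 of its 436 windows of 50 bases also occur in Malat1-201.

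An annotated gene on the opposite strand takes counts from the same stretch. Gm37376 (ENSMUSG00000102349.1, a locus still to be verified experimentally, biotype TEC; chr19:5801941-5802393, plus strand) has 453 bases, all of them the reverse complement of positions 280 to 732 of Malat1-201. It received 25841 counts in library 1 and 29154 in library 2, which is 50.5% and 47.2% of the Malat1 count, and 5144 and 5535 TPM. Of the counts of both genes together, 85.2% and 86.9% sat in Malat1-203 and Gm37376. The strand setting of the libraries and of the counting is not given in the sources used here, so reads of Malat1 and of Gm37376 cannot be told apart. Of the 404 windows of Gm37376, 20.5% also occur on the same strand in other genes. For Malat1 that share was 1.64%.

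**Figure D3:**
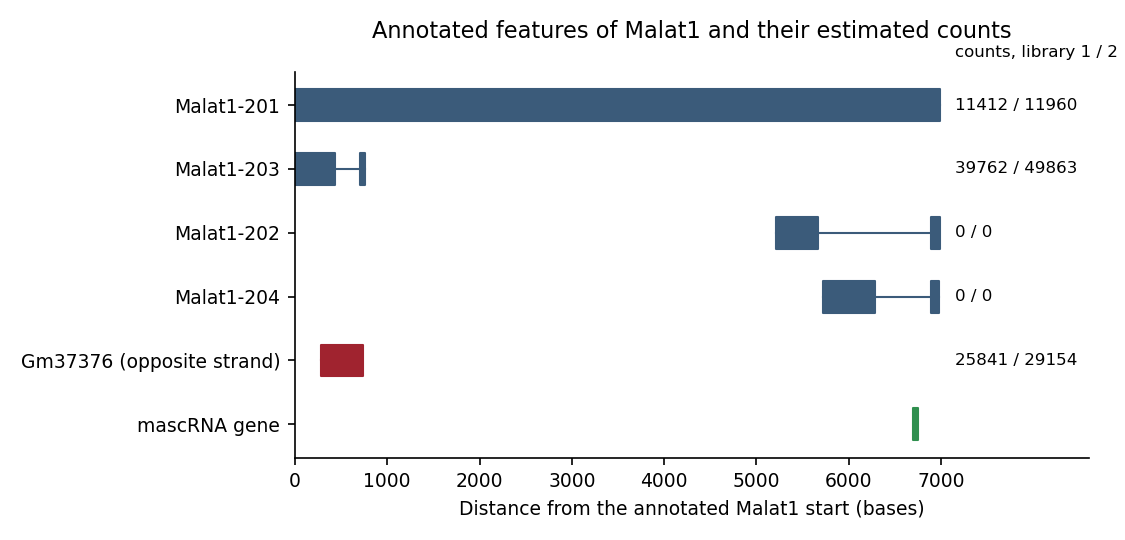
Annotated Malat1 transcripts, the opposite-strand gene Gm37376 and the mascRNA gene by distance from the annotated Malat1 start in bases; boxes are exons, thin lines introns, and the numbers at the right are estimated counts in library 1 and library 2. The counts concentrate in the features of the first 757 bases, Malat1-203 and Gm37376.

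The level of Malat1 rests on which length the counts are divided by. The model length behind the deposited TPM was 600 bases in library 1 and 582 in library 2. With the 6983-base transcript as the length for all Malat1 counts, the level was 639 TPM, 12.8-fold below the deposited one. It then still led the members, ahead of Gas5 at 245 TPM on the same basis. Its ranks among long noncoding genes and among all genes are those of the deposited TPM and were not recomputed on that basis.

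Neat1 (ENSMUSG00000092274.3, lincRNA; chr19:5824708-5845478, minus strand), the paraspeckle scaffold, was far lower. It stood at 33.6 TPM in library 1 and 27.5 in library 2, a mean of 30.6 ± 4.36, from 1419 and 1211 counts, and was rank 67 among long noncoding genes. Library 1 was the higher one. The gene makes a short polyadenylated form and a long form whose end, like that of Malat1, is a triple helix and not a poly(A) tail. Neat1-202 (3004 bases) received 96.49% and 94.65% of the TPM and 84.0% and 82.7% of the counts. The long Neat1-201 (20771 bases) received 2.58% and 2.70% of the TPM, from 223 and 200 counts. The long form was thus measured at 0.870 and 0.740 TPM in RNA selected for poly(A). Only 0.203% of the windows of Neat1-202 are absent from the other Neat1 transcripts, against 83.2% for Neat1-201, so the split rests mainly on reads over the part that is particular to the long form. With the length of Neat1-201 for all counts the level of Neat1 was 5.00 TPM, the lowest of the members on that basis.

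Of the paraspeckle protein genes listed beside Neat1, 10 of 10 were expressed, and their median was 76.1 TPM. The RNA-binding protein Hnrnpk was highest at 1853 and 1756 TPM, and Pspc1, the paraspeckle component 1 gene, lowest at 15.8 and 8.74 TPM. Nono stood at 268.7 and 258.6 TPM and Sfpq at 50.1 and 45.5.

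Gas5 (ENSMUSG00000053332.13; chr1:161034422-161038539, plus strand), named for its accumulation in growth-arrested mouse cells, was the most abundant snoRNA host among the members. It stood at 949 TPM in library 1 and 1029 in library 2, a mean of 989 ± 56.5, from 7407 and 8277 counts, rank 4 among long noncoding genes. The next of the 10 members, Snhg5, was 8.92-fold lower. Gas5 has 25 annotated transcripts. The spliced Gas5-224 (502 bases, 12 exons) led with 51.58% and 55.78% of the TPM, and the retained-intron transcript Gas5-213 followed with 10.27% and 9.85%. None of the windows of either occurs in these transcripts alone, so these shares rest on the model's division of shared reads.

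Part of the Gas5 signal was assigned to RNA that still holds introns. Transcripts of the retained_intron biotype, 20 of 25, received 47.5% and 43.4% of the Gas5 TPM. The 16 transcripts with a whole snoRNA gene inside an exon received 32.2% and 29.2% of the TPM and 47.9% and 44.8% of the counts. The largest of these, Gas5-218 (2556 bases, 6 snoRNA genes in its exons), had 943 and 973 counts.

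Snhg1 (ENSMUSG00000108414.1; chr19:8723475-8726443, plus strand) is the host of U22 and 7 further annotated snoRNA genes. It stood at 80.8 and 79.5 TPM, a mean of 80.2 ± 0.898, from 862 and 838 counts. Both libraries gave nearly the same level. Snhg1-211 (605 bases, 10 exons) led with 53.88% and 45.68% of the TPM. Transcripts that hold a snoRNA gene in an exon, 11 of 18, received 39.7% and 35.4% of the TPM and 61.6% and 58.6% of the counts. The largest by counts was Snhg1-215 (2728 bases, 7 snoRNA genes in its exons), with 286 and 249 counts.

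Snhg3 (ENSMUSG00000085241.7; chr4:132348014-132353686, minus strand) is the host of the U17 snoRNAs Snora73a and Snora73b, which act in the cleavage of the ribosomal RNA precursor. It stood at 45.2 TPM in both libraries (SD 0.0212), from 228 and 229 counts. Of its 5 transcripts, Snhg3-204 led with 76.65% and 79.06%, while Snhg3-202 had 13.04% in library 1 and 1.76% in library 2. No annotated Snhg3 transcript holds a whole snoRNA gene in an exon, although 110 of the 982 Snhg3 windows also occur in Snora73a on the same strand. On the opposite strand, 51.0% of its windows lie in Gm17300, which received 54.6 and 57.8 counts, equal to 24.0% and 25.3% of the Snhg3 count, and without strand these reads cannot be told apart.

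Snhg5 (ENSMUSG00000097195.9; chr9:88521050-88522929, minus strand), host of the U50 snoRNAs, stood at 115.7 TPM in library 1 and 106.1 in library 2, a mean of 110.9 ± 6.76, from 1137 and 1187 counts. No transcript dominated. The retained-intron Snhg5-206 led in library 1 with 24.68%, and the spliced Snhg5-201 led in library 2 with 23.69%. Snhg5-203 went from 19.38% in library 1 to 0.06% in library 2. The 2 transcripts with a snoRNA gene in an exon received 28.0% and 38.0% of the TPM. On the same strand, 192 of the 1841 Snhg5 windows (10.4%) also occur in other genes, 162 of them in a single gene other than its snoRNAs.

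Snhg8 (ENSMUSG00000104960.1; chr3:123507552-123508404, minus strand), host of Snora24, stood at 63.5 and 67.5 TPM, a mean of 65.5 ± 2.84, from 382 and 462 counts. Its spliced transcript Snhg8-201 (448 bases) received 69.59% and 61.14% of the TPM. The unspliced Snhg8-202 (776 bases, with Snora24 inside) received 24.20% and 38.23%, and 36.4% and 53.0% of the counts. Library 2 was higher in the gene's level and in the share of the unspliced transcript.

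Snhg12 (ENSMUSG00000086290.9; chr4:132308623-132311024, plus strand), host of Snora16a, Snora44, Snora61 and Snord99, stood at 41.4 and 37.3 TPM, a mean of 39.4 ± 2.88, from 309 and 297 counts. Its transcript shares were the least stable of the set. Snhg12-206 had 12.77% in library 1 and 41.67% in library 2, a gap of 28.9 percentage points, and Snhg12-202 had 32.84% and 8.0%. The sum over the 8 of 10 transcripts with a snoRNA gene in an exon was steadier, 54.4% and 50.3% of the TPM. Over the whole set, 92 transcripts are annotated, 29 of which reached 10% of their gene's TPM in either library. For 8 of 10 members, all but Snhg5 and Snhg12, the libraries had the same leading transcript.

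**Figure D4:**
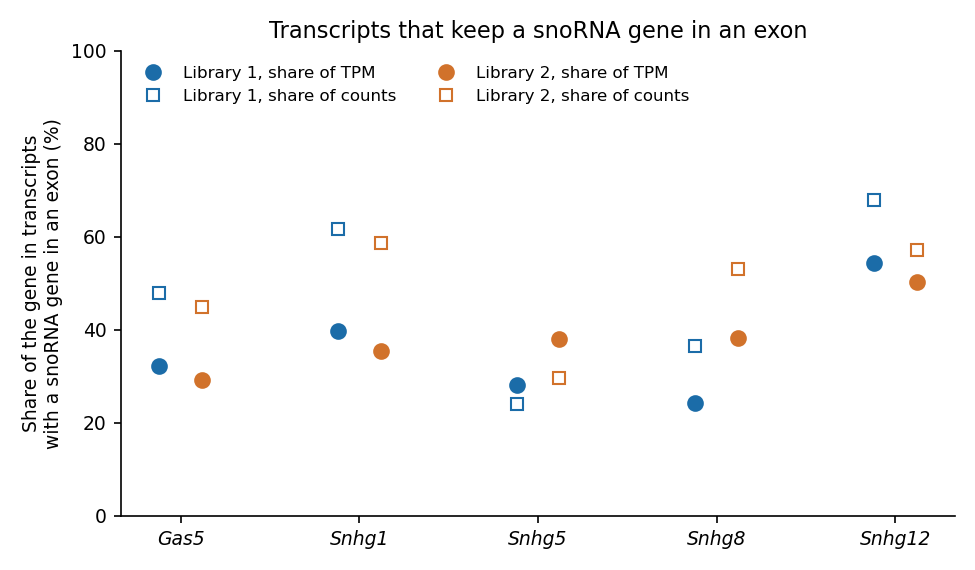
Share of each host gene in annotated transcripts that hold a whole snoRNA gene in an exon, as percent of TPM (filled points) and percent of estimated counts (open squares), in library 1 and library 2. Shares of TPM lie between 24.2% and 54.4%; the share of counts is the higher in Gas5, Snhg1, Snhg8 and Snhg12 and the lower in Snhg5.

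Dleu2 (ENSMUSG00000097589.9; chr14:61602839-61682373, minus strand) stood at 18.4 and 21.1 TPM, a mean of 19.7 ± 1.90, from 523 and 540 counts. It spans 79535 bases, the longest locus of the set. The leading transcript was Dleu2-215, an unspliced annotation of 4098 bases with the biotype TEC, at 37.86% and 27.02% of the TPM and 67.0% and 55.6% of the counts. The spliced Dleu2-208 received 13.3% and 12.1%. The hairpin genes Mir15a and Mir16-1 lie in introns of Dleu2, and each had 0 counts in both libraries, as annotated features of 84 and 93 bases.

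Epb41l4aos (ENSMUSG00000087590.2; chr18:33794892-33795986, plus strand), which holds the snoRNA gene Gm23639 in an intron, was the lowest member. It stood at 12.1 and 11.9 TPM, a mean of 12.01 ± 0.177, from 55 and 59 counts. Epb41l4aos-201 (430 bases) received 87.03% and 100% of the TPM. None of its windows of 50 bases is shared with another gene on either strand.

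The small RNAs inside the members were scarcely counted, although their hosts were abundant. The 31 embedded snoRNA and microRNA genes received 57.2 counts in library 1 and 71.4 in library 2 in all, and 15 of them had 0 in both. The 10 snoRNA genes of Gas5 together had 16.5 and 37.6 counts, 0.223% and 0.455% of the count of Gas5. The 8 of Snhg1 had 3.43 and 2.81 counts. Snora73b was highest, with 16.5 and 26.3 counts, while its near copy Snora73a had 0, and the division between them is uncertain. Snora73a also shares 110 windows with Snhg3 transcripts, so its division from the host is uncertain as well. Snora24 had 12.4 counts in library 1 and 0 in library 2. Across the libraries, 1201 of 1507 snoRNA genes had 0 counts in both, and all snoRNA genes took 0.00873% and 0.00845% of counts. The label gives a fragment size range of 100 to 300, most of these genes are shorter than 100 bases and polyadenylated RNA was selected, so a low count is no measure of mature snoRNA, and reads of transcripts that retain introns carry the same sequence.

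The start sites of the hosts were read for pyrimidine runs, since such a run at the cap marks the translation-linked class. RefSeq (GRCm38.p6) gave a promoter window for 8 members, 9 windows in all with 2 for Gas5. Each printed window covers 10 bases before and 20 from the annotated start. Snhg1 and Snhg12 hold runs of C and T of 9 bases, a length that 7.11% of 32851 promoters reach. Dleu2 has 8 (11.2%), Snhg5 and Snhg8 have 7 (17.9%), Snhg3 has 5 (46.4%), and the Gas5 starts have 3 (88.3%) and 6 (28.7%). Malat1 has 4 (68.6%), which is the median over all promoters. The runs of Snhg12, Snhg8 and the second Gas5 start span the annotated start. Those of Snhg3, Snhg1 and Snhg5 begin at bases 3, 5 and 8 from it. Those of Dleu2, Malat1 and the first Gas5 start lie wholly before it. Only the coding strand was read, and a run is a description, not a site. The windows with the longest run in capitals are, at chr19:8723477-8723506 (plus strand), chr4:132308668-132308697 (plus strand), chr1:161035156-161035185 (plus strand) and chr19:5802653-5802682 (minus strand):
Snhg1: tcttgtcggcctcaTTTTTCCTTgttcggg
Snhg12: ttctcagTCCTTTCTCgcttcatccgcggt
Gas5 start 2: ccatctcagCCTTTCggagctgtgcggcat
Malat1: ggCTCTgcgtcaggcattcaggcagcgaga

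Between the 2 technical libraries, 3 of the 10 members differed. The exact two-sided binomial test with Benjamini-Hochberg adjustment over 17458 genes compares these libraries and takes reads as independent. At an adjusted p of 0.05 it called 25.1% of all genes and 15.0% of long noncoding genes. The 3 of 10 is near the share of all genes and above that of long noncoding genes. With 10 genes, neither gap is read as a result about the members. By direction, 2 members were higher in library 2 (11.8% of all genes) and 1 in library 1 (13.4%). Malat1 (log2 ratio of library 2 to library 1 0.24, adjusted p = 3.78e-170 in the exact binomial test) and Gas5 (0.13, adjusted p = 7.27e-07) were higher in library 2. Neat1 (-0.26, adjusted p = 6.9e-05 in the exact binomial test) was higher in library 1. The opposite-strand gene Gm37376 had a log2 ratio of 0.14 (adjusted p = 1.57e-28 in the exact test), also higher in library 2.

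The other members did not pass the exact binomial test, with log2 ratios from -0.09 (Snhg12) to 0.24 (Snhg8, adjusted p = 0.0606). The members' median absolute log2 ratio was 0.08, against 0.13 over the 9738 genes with a mean count of 100 or more. Ratios moved with gene length. The median log2 ratio was 0.07 in the shortest eighth of genes by model length and -0.06 in the seventh, which holds Neat1. The shortest eighth holds Malat1 and Snhg8 (each 0.24), Epb41l4aos (0.07), Snhg3 (-0.02) and Snhg12 (-0.09). Malat1 falls there by its model length of 600 bases in library 1, although its longest transcript has 6983 bases. The part of length in the members' ratios was not tested. A common dispersion was estimated from these same 2 libraries as 1 group, and lets genes vary by 13.0% beyond counting error. With it, edgeR's exact test called none of the 10 (adjusted p = 1 for each, with 0 of 10 at an unadjusted p under 0.05), and 2.00% of all genes. The spread allowed includes the difference under test, so the lack of a call does not show that the libraries are alike.

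**Figure D5:**
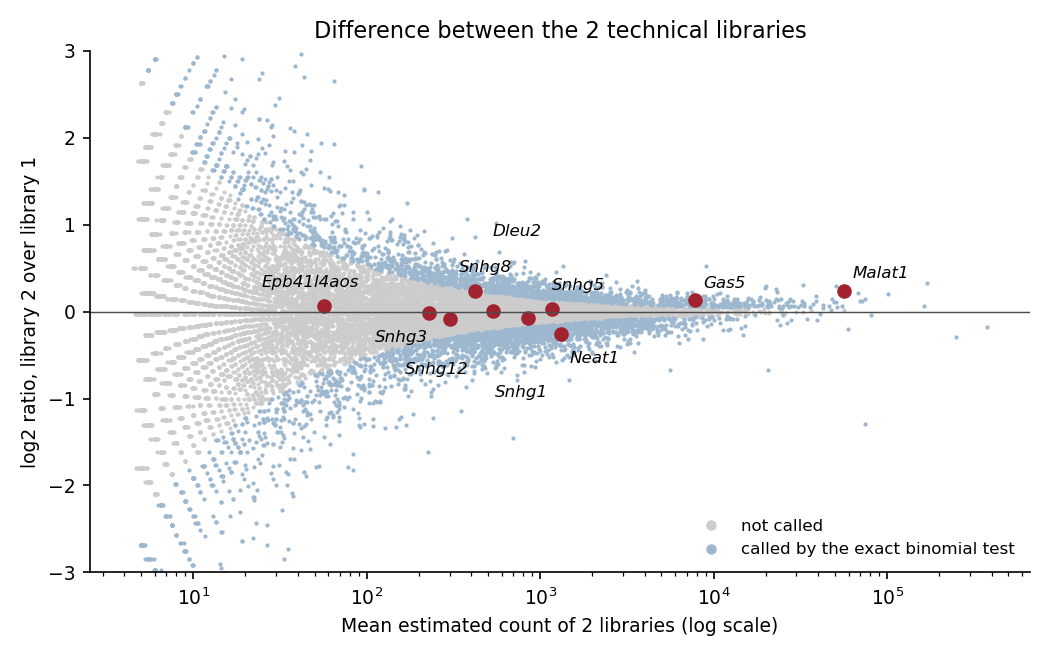
log2 ratio of library 2 to library 1 against mean estimated count (log scale) for the 17458 genes tested; grey points were not called, blue points were called by the exact binomial test, and red points are the 10 members. Malat1, at 0.24, is far to the right and Neat1 lies at -0.26; 303 genes beyond the axis limits of 3 are not drawn.

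The nearest protein-coding genes were read for comparison of levels. Gas5 overlaps the divergent Zbtb37, a zinc finger gene at 5.93 and 8.19 TPM, and was 140-fold higher. Snhg1 starts 106 bases from the divergent Slc3a2, the heavy chain of amino acid transporters (CD98), at 55.2 and 47.4 TPM; Snhg1 was 1.56-fold higher. Snhg3 and Rcc1, the exchange factor of the GTPase Ran, run in the same direction from starts 81 bases apart and overlap, and Snhg3 was 5.54-fold above the 7.58 and 8.73 TPM of Rcc1. Of the members compared, only Neat1 was below its nearest protein-coding gene by mean deposited TPM, at 0.614 of the level of Frmd8. The remaining hosts were 1.19-fold (Snhg12 over Trnau1ap) to 105-fold (Snhg8 over Prss12) above theirs.

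Other hosts and the proteins that act on these RNAs were read from lists of genes. Of 16 further snoRNA hosts 14 matched a gene, 12 were expressed and the median was 26.6 TPM. The translation factor gene Eif4a2 was highest at 475.4 and 415.0 TPM, above every listed noncoding host but Gas5, and Snhg14 stood at 4.48 and 3.32 TPM. In the exact binomial test these genes were the 2 of 12 tested that were called, both higher in library 1, against 25.1% of all genes called in either direction. The genes of snoRNA-protein complexes had a median of 92.2 TPM, with 10 of 10 expressed, from Naf1 (1.75 and 1.62) to the box C/D protein gene Nop56 (289.4 and 289.6). Nop58, Dkc1, Nhp2 and Nop10, 4 of 10 tested, were called, all higher in library 2, where 11.8% of all genes were called. Of the paraspeckle genes Nudt21 was called higher in library 2, and Pspc1 and Rbm14 higher in library 1, where 13.4% of all genes were called. None of these calls was made by edgeR's exact test with the common dispersion.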

How the data were processed

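Samples fall into 1 group of 2 technical libraries of 1 mouse. Each library has gene and transcript tables on mm10 with GENCODE M21, per the deposited readme texts; the sources used here do not give the aligner, software versions or strand setting. The column names are those RSEM writes. The authors deposited expected counts (estimated counts, not scaled) and TPM, scaled by the authors over all features. The deposited posterior interval bounds of the TPM and the lengths are treated as scores. The deposited transcript percent is the share of a gene's TPM. A smaller deposited table holds whole-number counts for 22457 genes. The 26248 features with numeric identifiers and 97 spike-in sequences, with 0.176% and 0.169% of counts, were not tested.

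Names and positions came from GENCODE M21, and 4 list genes were matched by an older symbol through RefSeq. Expected counts were rounded and compared by an exact two-sided binomial test on genes whose counts summed to 10 or more, with TMM library sizes (edgeR 4.0.16), Benjamini-Hochberg adjustment at 0.05 and log2 ratios with a prior count of 0.5. Alternatives used DESeq2 1.42.0 size factors and edgeR's exact test with a common dispersion estimated over both libraries as 1 group. Other steps used Python 3.11.15, pandas 2.3.3 and scipy 1.17.1. Shared windows are 50-base stretches of transcripts found in another gene or transcript. Intervals and floors cover counting error only, and p-values compare these technical libraries, not conditions.

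Named genes are the 10 members, the small RNA genes inside them with the highest count per host, the nearest protein-coding gene of each, and from each list the highest, the lowest and those called, except a few that are not reported here; Foxp3, Nono, Sfpq, the opposite-strand genes, AY036118, Norad, Oip5os1 and the microRNA hosts were named after their values were seen where they fall outside this rule. The members and lists were chosen with earlier results of these data known.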

Additional observations from a re-analysis of the deposited data

How the results depend on the processing

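Malat1, Gas5 and Neat1 differed between the libraries under total count scaling, DESeq2 size factors, no count filter, a summed count of 50 or more and posterior mean counts. Of all genes tested these settings called 25.1%, 25.5%, 13.5%, 29.5% and 23.9%, in the same order. DESeq2 size factors added Snhg8 (log2 ratio 0.27, adjusted p = 0.035 in the exact binomial test). The common dispersion of edgeR left 0 members and 2.00% of all genes called, since it allows for spread beyond counting error, estimated from the same 2 libraries. All 10 members stayed expressed at 0.5 and 5 TPM, by posterior mean TPM and in each library alone.

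Levels moved beyond the library SD in 7 of 10 members by posterior mean TPM and in 7 by a rescaled TPM without mitochondrial and rRNA genes and spike-ins; for Gas5 these gave 888 and 1075 TPM. Divided by the longest transcript, an alternative chosen after seeing the data, the levels were 639 (Malat1), 245 (Gas5), 77.9 (Snhg5), 45.5 (Snhg8), 33.7 (Snhg3), 24.9 (Snhg1), 16.02 (Snhg12), 11.7 (Epb41l4aos), 10.3 (Dleu2) and 5.00 TPM (Neat1), so that Snhg1 fell behind Snhg8 and Snhg3, Neat1 behind Dleu2 and Epb41l4aos, and Dleu2 behind Epb41l4aos. Shares of the leading transcript moved in 3 members by posterior mean TPM (36.2% for Snhg1, 70.5% for Snhg3, 82.6% for Epb41l4aos) and in 7 by counts, among them Malat1 (79.2%), Gas5 (39.1%) and Dleu2 (61.3%). With 2 libraries, leaving out either keeps levels and shares within 1 SD by construction.

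No paired analysis was possible because the libraries form 1 group. The planned comparison with the smaller table was not run: 0 of the 10 members are among its 22457 identifiers. Low counts limit Epb41l4aos, Snhg3 and the snoRNA genes most, and 1 mouse leaves biological spread unmeasured.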

Other observations

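The 10 factors of nonsense-mediated decay, the pathway that removes many spliced host RNAs, all reached 5 TPM in both libraries, and their median was 16.5 TPM. Smg8 was lowest at 7.61 and 6.23 TPM. None of the 10 was called between the libraries by the exact binomial test, against 25.1% of all genes; 2 had an unadjusted p under 0.05, and edgeR's exact test with the common dispersion also called 0.

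Of 24 other well known long noncoding RNAs, 22 matched a gene and 16 were expressed, with a median of 9.45 TPM, against 55.4 TPM for the 10 members. Gm26917 was highest at 618 and 378 TPM and Tug1 followed at 194 and 158. Norad (23.9 ± 1.90 TPM) and Oip5os1 (43.2 ± 4.55) were called higher in library 2 by the exact binomial test. Kcnq1ot1, Tug1, Rn7sk and Gm26917 were called higher in library 1. These 6 of 18 tested stand beside 25.1% of all genes and 15.0% of long noncoding genes. With the common dispersion, edgeR's exact test called 0 of the 18. The hosts of microRNAs in that list stood at 36.8 ± 2.75 (Mir142hg), 20.7 ± 1.77 (Mir155hg) and 2.61 ± 0.233 TPM (Mir17hg), beside 19.7 ± 1.90 for Dleu2.

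Among small RNA features inside the nuclear members, Gm27694 within Malat1 had 30.6 and 9.45 counts, and 3 such features within Neat1 had 0 to 5.82.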
